A study of Mus musculus with 16 samples.

Results

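B-cell lineage genes are the genes by which B lymphocytes and their precursors are recognized. The set described here holds 31 named genes, all of them present among the 38926 gene names of the mpEC and bmEC libraries and of the Lats2 libraries, and 30 of them among the 21603 gene identifiers of the Yap1/Taz libraries, where Ighm was not analysed. By role they comprise 8 genes of B-cell precursors, 12 genes of mature B cells, 7 genes of the B-cell receptor and its signaling that are used at several stages, 3 genes of transcriptional control and the gene Jchain of antibody-secreting cells. The data are RNA sequencing values, in FPKM (fragments counted on a gene, divided by gene length and library size), for 16 libraries of endothelial cells (ECs) sorted by flow cytometry from bone of mice on a C57BL/6 background. Wild-type ECs came from the metaphysis (mpECs, 3 libraries), the part of long bone next to the growth plate, or from the diaphyseal marrow cavity (bmECs, 3 libraries), and the methods state that they were sorted from 3-week-old animals with a Cdh5-mT/nG endothelial reporter. The Yap1/Taz libraries came at postnatal day 21 from mice with floxed Yap1 and Wwtr1 alleles (Yap1flx/flx and Wwtr1flx/flx), and Wwtr1 encodes Taz. Of these, 3 control libraries were negative and 3 libraries labelled ECKO were positive for Cdh5CreERT2, a Cre recombinase driven by the endothelial Cdh5 gene that acts after tamoxifen. The Lats2 libraries carried Lats2flx/flx and were negative (2 control libraries) or positive (2 libraries labelled cKO) for Cdh5CreERT2, and the methods give 3 weeks as their age as well. Pups received tamoxifen in an earlier or a later window of postnatal days according to the methods, and the study pairs the later window with Yap1/Taz bones taken at postnatal day 21. The dose behind single libraries, the window of the Lats2 libraries and whether the controls received tamoxifen are not given in the sources used here. The deletions were thus aimed at ECs and not at B-lineage cells. Sorting of bone ECs is described with antibodies against CD31 and Emcn and a dye for dead cells, and the methods name no antibody against blood cells. For the mpECs and bmECs the study describes a sort by the fluorescent proteins of the reporter, at high purity.

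B cells arise in the bone marrow from lymphoid progenitors. Rag1 and Rag2 rearrange the immunoglobulin loci while Dntt adds bases at the joints, a surrogate light chain made by Vpreb and Igll1 pairs with the heavy chain in the pre-B-cell receptor, and signaling runs through Cd79a and Cd79b. Ebf1 and Pax5 set up and hold B-cell identity, later cells turn on surface proteins such as Ms4a1 (CD20) and Cd22, and antibody-secreting cells make Jchain, which joins the units of secreted IgM and IgA.

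Sequencing depth was recovered from the FPKM values with gene lengths, and came to 11152543 to 14792340 reads on genes in the mpEC and bmEC libraries, 4884911 to 7155947 in the Yap1/Taz libraries and 4739250 to 7078519 in the Lats2 libraries. In a gene of 2000 bases, 1 read was worth 0.0405 to 0.0608 FPKM, 0.0727 to 0.107 FPKM and 0.0841 to 0.133 FPKM in these sets. Low members thus rested on few reads, as in the Lats2 set, where Igll1 was counted from 2 to 59 reads. The 3 sets of libraries were scaled separately, so every test was made within a set, and levels set side by side across them are descriptions on separate scales.

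Endothelial identity was checked with 12 EC marker genes, all of which were above 0 in all 16 libraries. Their summed level was 1812, 2270.2 and 2174 FPKM in mpEC replicates 1 to 3 and 2419.9, 2317 and 2325 FPKM in bmEC replicates 1 to 3, with Cldn5 the most abundant. It was 749, 763 and 725 FPKM in the Yap1/Taz controls and 915, 1039 and 1061 FPKM in the ECKO libraries, where Cldn5 was again the most abundant, unlike in the controls, and 3360.2 and 3673 FPKM in the Lats2 controls and 3352 and 3202 FPKM in the cKO libraries, led by Cldn5 in the controls and by Esam in the cKO libraries. RNA of blood cells was present beside them. Ptprc, which encodes the pan-leukocyte antigen CD45, was at 32.6, 16.9 and 19.3 FPKM in mpECs and 15.4, 12.1 and 15.8 FPKM in bmECs, where the endothelial gene Cdh5 was at 149, 203 and 189 and 165, 160.1 and 182 FPKM. In the Yap1/Taz set Ptprc reached 64.4, 53.0 and 64.4 FPKM in control and 60.6, 62.2 and 55.9 FPKM in ECKO libraries, beside Cdh5 at 105, 111 and 101 and 113, 131 and 143 FPKM. The Lats2 set had less, with Ptprc at 6.39 and 5.57 FPKM in control and 2.80 and 0.795 FPKM in cKO libraries and Cdh5 at 229 and 267 and 276 and 277 FPKM. The libraries labelled bone ECs thus held endothelial markers and leukocyte transcripts together. B-lineage values in such bulk libraries mix the share of B-lineage cells in a sort with the RNA each cell holds, and fewer cells of a type and less RNA per cell cannot be told apart.

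Levels of the targeted genes were set against the labels. Wwtr1 went against the label, at 10.0, 9.88 and 10.3 FPKM in the Yap1/Taz controls and 15.3, 19.7 and 19.5 FPKM in the libraries labelled ECKO, each of which lay above each control (log2 change of 0.78 with SE 0.12 and adjusted p = 0.0272, limma with Benjamini-Hochberg adjustment). That call was lost with no filter on low values, without control replicate 2 or 3, and without ECKO replicate 2 or 3. The direction was kept, with a log2 fold change of 0.72 to 0.89 over the fits tried. Yap1 was at 1.07, 1.62 and 0.995 FPKM in the controls and 1.43, 1.04 and 0.989 FPKM in the libraries labelled ECKO, and the groups overlapped. Lats2 was at 23.4 and 24.0 FPKM in its controls and 19.2 and 19.2 FPKM in the libraries labelled cKO, a log2 fold change of -0.29 with an adjusted p of 0.125. These values cover whole genes, and reads from exons that a floxed allele keeps would count as well, so the Lats2 and Yap1 levels leave the labels unchecked, and other assays of deletion in the study were not analysed here. Directions are therefore given for the libraries labelled ECKO and cKO. One wild-type library also stood apart. In mpEC replicate 1, 25 of the 28 members with a mean of at least 1 FPKM were above both other mpEC libraries and 24 were the highest of all 6 libraries, with a median ratio of 1.70 to the mean of the other mpEC libraries. All 12 neutrophil markers and all 8 pan-leukocyte markers were also highest there, with median ratios of 2.05 and 1.78, while 0 of 12 endothelial markers exceeded both other mpEC libraries and their median ratio was 0.775. For the main test, calls, medians and negative estimates over all members are given with and without this library, as are calls and medians of precursor genes. Limma-voom counts, counts of groups without overlap and counts over the other roles are given with it only. The marker and companion counts that moved without it are named, and the part of these markers in the results was not tested.

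The surrogate light chain genes and their signaling partner introduce the members at the level of sequence. Vpreb1 (chr16:16868403-16870843), Vpreb2 (chr16:17980428-17981273) and Igll1 (chr16:16860671-16863985) lie on chromosome 16 of GRCm38, and Cd79a (chr7:24897381-24902197) lies on chromosome 7. Of the 31 members, 26 matched a RefSeq promoter of 300 bases, from 250 bases before to 50 bases after the transcription start, and Ms4a1, Cd79b, Blk, Ighm and Cd24a are named only. The E-box CAGGTG, read as CACCTG on the other strand and known as a sequence that E2A proteins bind, stood in 14 of the 26, where 20.2% of 32851 promoters hold it. A member was counted once if any of its promoters held the motif, and Fcer2a, Cnr2 and Ebf1 have more than 1, while the shares are per promoter, so the 2 are not on the same unit. These 14 were Vpreb1, Vpreb2, Igll1 and Rag1 among precursor genes, Cd22, Cd37, Cr2, Fcer2a, Bank1, Fcrla and Cnr2 among mature genes, Cd79a and Blnk among receptor genes, and Jchain. The letters CCCNNGGG of the EBF motif stood in 4 of 26 (13.7% of all promoters), the octamer ATGCAAAT in 3 of 26 (1.74%) and GAGGAA, the core of the PU box, in 12 of 26 (28.3%), each counted on both strands. The promoters of the surrogate light chain genes and of Cd79a are shown because these genes encode parts of the pre-B-cell receptor and each holds 1 such E-box. They are RefSeq sequences of GRCm38.p6, written 5′ to 3′ along the gene, at chr16:16869206-16869505 (minus strand), chr16:17980315-17980614 (plus strand), chr16:16863936-16864235 (minus strand) and chr7:24897247-24897546 (plus strand), and capitals mark CAGGTG or CACCTG.
Vpreb1: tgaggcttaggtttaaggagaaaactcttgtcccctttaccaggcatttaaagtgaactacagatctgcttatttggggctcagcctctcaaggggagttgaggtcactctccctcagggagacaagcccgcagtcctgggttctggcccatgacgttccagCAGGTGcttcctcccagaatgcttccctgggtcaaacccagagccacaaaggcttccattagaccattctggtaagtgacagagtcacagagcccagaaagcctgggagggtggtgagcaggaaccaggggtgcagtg
Vpreb2: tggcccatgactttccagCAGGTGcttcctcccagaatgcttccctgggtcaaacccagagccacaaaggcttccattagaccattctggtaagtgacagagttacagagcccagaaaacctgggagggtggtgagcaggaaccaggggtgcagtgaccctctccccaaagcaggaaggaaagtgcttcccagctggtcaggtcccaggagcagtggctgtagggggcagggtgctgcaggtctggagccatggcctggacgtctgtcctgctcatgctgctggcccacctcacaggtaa
Igll1: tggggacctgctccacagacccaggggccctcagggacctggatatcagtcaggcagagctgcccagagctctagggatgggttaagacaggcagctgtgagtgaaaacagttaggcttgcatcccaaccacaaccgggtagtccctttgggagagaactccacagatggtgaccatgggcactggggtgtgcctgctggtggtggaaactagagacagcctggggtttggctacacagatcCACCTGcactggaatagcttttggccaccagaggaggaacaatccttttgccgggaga
Cd79a: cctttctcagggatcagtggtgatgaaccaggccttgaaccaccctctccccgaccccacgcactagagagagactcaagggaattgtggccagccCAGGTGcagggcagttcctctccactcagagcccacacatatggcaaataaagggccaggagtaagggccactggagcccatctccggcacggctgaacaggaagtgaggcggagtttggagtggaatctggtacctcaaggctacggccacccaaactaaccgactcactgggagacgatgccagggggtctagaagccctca
The motif begins at position -88 from the start in Vpreb1, -232 in Vpreb2, -8 in Igll1 and -154 in Cd79a. These positions count from the RefSeq start of each window. For Vpreb1, Vpreb2 and Cd79a that start lies inside the gene span given above, so counting from the edge of the span would give other positions. The Vpreb1 and Vpreb2 promoters share a run of 91 bases that includes it. Their transcripts are 96.6% identical over 766 aligned bases, so reads can fall on either gene and the values of Vpreb1 and Vpreb2 are uncertain against each other. These matches describe letters in the window, and binding of a factor was not measured.

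B-lineage transcripts were found in every library. Summed over the members, they came to 1048, 616 and 568 FPKM in mpEC replicates 1 to 3 and 614, 506 and 562 FPKM in bmEC replicates 1 to 3. The Yap1/Taz set held 1099, 987 and 959 FPKM in controls and 896, 904 and 858 FPKM in ECKO libraries over 30 members. In the Lats2 set the sum was 457 and 387 FPKM in controls and 126 and 83.3 FPKM in cKO libraries. Ighm, the constant region of the IgM heavy chain, was the most abundant member in the mpEC, bmEC and Lats2 libraries, and Cd24a, a surface glycoprotein that erythroid and granulocytic cells also carry, led in each Yap1/Taz library but control replicate 1, where Dntt was slightly higher. No member was at 0 in all libraries of a set, and in single libraries 0 was listed for Jchain in bmEC replicate 2, for Jchain in 3 of the 4 Lats2 libraries, for Rag1 in both Lats2 cKO libraries and for Vpreb2 in Lats2 cKO replicate 2. The plot of levels shows that most members were detected in all 3 sets, with the order of genes differing between them.

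**Figure D1:**
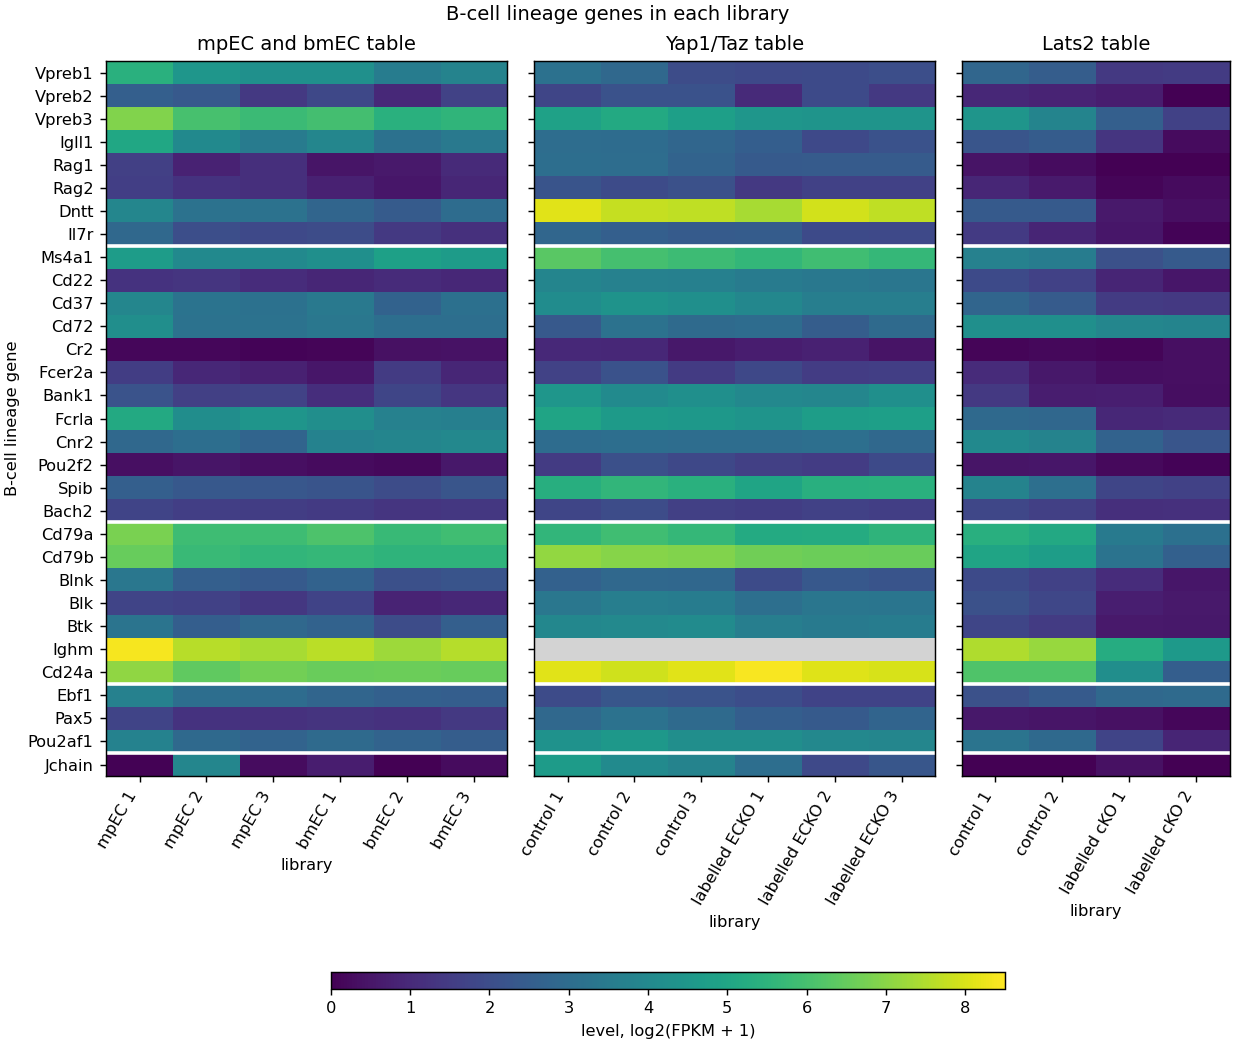
Level of each B-cell lineage gene in each of the 16 libraries, shown as log2(FPKM + 1) by color, with genes in horizontal lines grouped by role and separated by white lines, and libraries in columns grouped by set; the sets were scaled separately. Grey marks Ighm, which was not analysed in the Yap1/Taz libraries, and the summed level of the members is lowest in Lats2 cKO replicate 2, at 83.3 FPKM.

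Whether precursor or mature genes carried the B-lineage signal was asked within each library, as the log2 ratio of the summed FPKM of the 8 precursor genes to that of the 12 mature genes. For mpEC replicates 1 to 3 this ratio was 0.98, 0.82 and 0.53, and for bmEC replicates 1 to 3 it was 0.50, -0.18 and 0.11. Precursor genes thus outweighed mature genes in all 3 mpEC libraries, mature genes were ahead in bmEC replicate 2, and the groups did not overlap, although mpEC replicate 3 and bmEC replicate 1 were close. Cnr2 supplied 5.74 of the mature sum of 68.1 FPKM in mpEC replicate 3 and 12.5 of 75.1 FPKM in bmEC replicate 1. Precursor sums there were 98.5 and 105.9 FPKM. The gap between these libraries thus depended on Cnr2, and the ratio without this gene was not calculated. The mean was 0.78 (SD 0.23, n = 3) in mpECs and 0.14 (SD 0.34, n = 3) in bmECs, a difference of -0.63, and the groups met when medians of log2(FPKM + 1) replaced sums (-0.41). Without mpEC replicate 1 the difference was -0.53. In the Yap1/Taz set the ratio was 0.64, 0.45 and 0.44 in controls and 0.38, 0.64 and 0.47 in ECKO libraries, and these ranges overlapped. Dntt alone made up 76.3% to 86.4% of the precursor sum there, and without Dntt, a setting chosen after seeing the data, the ratio was -1.78, -1.63 and -1.85 in controls and -1.99, -2.24 and -2.23 in ECKO libraries. Mature genes then outweighed precursor genes in all 6 libraries, and each ECKO library lay below each control. The difference between the groups was -0.01 with Dntt, -0.40 without it and -0.51 with medians. Mature genes were ahead in the Lats2 set in every library, at -1.04 and -1.17 in controls and -1.68 and -2.64 in cKO libraries. The difference of -1.06 between these groups was -0.17 with medians, and the groups then overlapped. The size of the difference also depended on the cKO library. The mean was -2.16 (SD 0.68, n = 2) in cKO libraries and -1.11 (SD 0.10, n = 2) in controls. Cd72 supplied 45.1% and 46.5% of the mature sum in the cKO libraries against 22.6% and 27.2% in their controls, and 41.6% of its exon bases overlap Tesk1 on the other strand. The methods name a stranded library kit, but which strand was counted is not given in the sources used here. Reads of Cd72 and Tesk1 therefore cannot be told apart with certainty. A ratio over chosen members is a description of these libraries and was given no test.

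**Figure D2:**
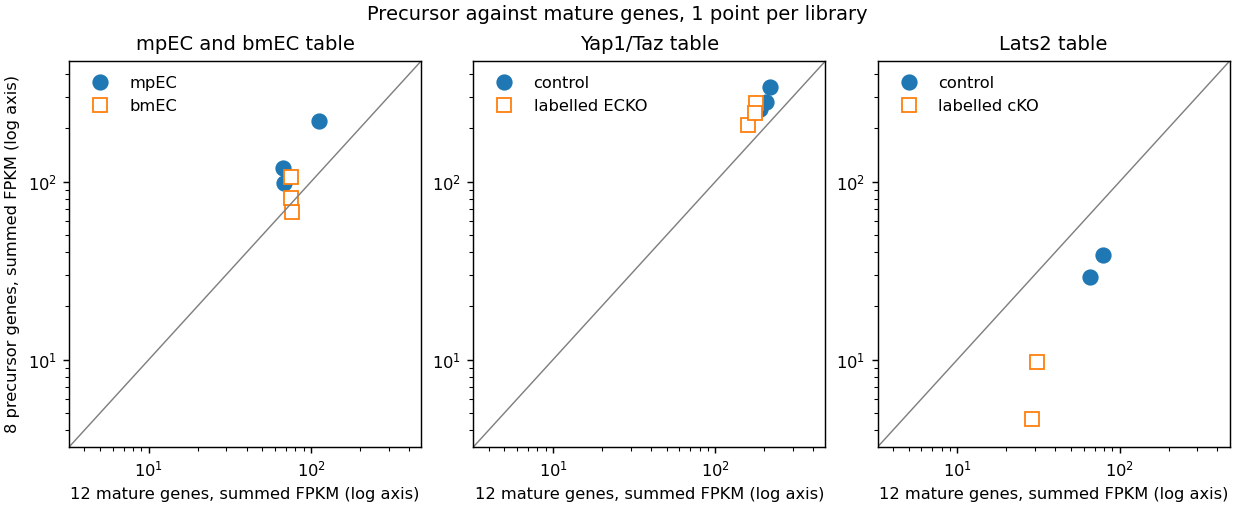
Summed FPKM of the 8 precursor genes against that of the 12 mature genes in each library, on log axes, with 1 point per library colored by group, a line where both sums are equal and a panel for each separately scaled set. The mpEC and Yap1/Taz libraries lie above the line, on the precursor side, and the Lats2 libraries below it, where bmEC replicate 2 also lies at a log2 ratio of -0.18.

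The comparison of bmECs with mpECs asked whether B-lineage RNA differs between the marrow cavity and the metaphysis. Few members changed by the main test. Cnr2, which encodes the cannabinoid receptor CB2 and is counted here among mature genes, was higher in bmECs. Rag2, part of the V(D)J recombinase, and Ebf1, an early B-lineage transcription factor, were lower. Of 28 members tested with limma on log2(FPKM + 1) with Benjamini-Hochberg adjustment over 11422 genes, 1 was higher and 2 were lower at an adjusted p-value under 0.05, where 13.0% of all genes tested were higher, 10.5% lower and 23.5% changed either way. Limma-voom on recovered reads called 3 members with library sizes as in the deposited scaling, beside 24.5% of all genes. With sizes from the summed reads it called 9, 5 of them precursor genes, beside 30.5% of all genes. Estimates were negative for 26 of 28 members, and their median log2 fold change was -0.41 against 0.00 for all genes. Libraries of the groups did not overlap in 1 member that was higher and 6 that were lower, beside 22.1% and 19.2% of all genes. These folds are on the log2(FPKM + 1) scale, which understates changes of low genes. The methods state that biological triplicates were used, but the labels do not say that libraries came from separate animals. The p-values thus measure only the spread between these samples.

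Among precursor genes Vpreb3 was the most abundant in all 6 libraries, above the surrogate light chain genes Vpreb1 and Igll1. Vpreb1 was at 40.9, 21.3 and 18.2 FPKM in mpEC replicates 1 to 3 and 18.2, 10.8 and 13.0 FPKM in bmEC replicates 1 to 3. Igll1, the lambda5 partner of Vpreb1, was at 32.5, 15.2 and 10.7 FPKM and 13.9, 7.96 and 9.89 FPKM in the same order. Vpreb3, a related chain that binds immunoglobulin chains inside the cell, was at 118, 64.8 and 54.5 FPKM and 61.3, 40.9 and 46.2 FPKM. In each of these genes mpEC replicate 1 was highest, bmEC replicate 2 lowest, and bmEC replicate 1 reached or exceeded mpEC replicate 3, so the groups overlapped and none passed the test (adjusted p = 0.0798, 0.202 and 0.154). Dntt, the terminal transferase that adds bases at V(D)J joints, was at 14.0, 8.20 and 8.23 FPKM in mpECs and 5.83, 4.47 and 6.99 FPKM in bmECs. Its groups did not overlap, yet its log2 fold change of -0.70 had an adjusted p of 0.0546. Rag2 was at 1.96, 1.38 and 1.20 FPKM in mpECs and 0.710, 0.432 and 0.893 FPKM in bmECs, on 14 to 83 reads. Every bmEC library lay below every mpEC library (log2 change of -0.58 with SE 0.18 and adjusted p = 0.0482). The call was lost when single libraries were omitted. For Rag2 this held for each of the 6 libraries in turn, with a log2 fold change of -0.62 without mpEC replicate 2, -0.67 without mpEC replicate 3 and -0.60, -0.47 and -0.67 without bmEC replicates 1, 2 and 3. Without mpEC replicate 1 it fell below the filter on low values. The call was also lost with no filter, with quantile normalization and with a pseudocount of 0.1. The remaining precursor genes ranged from 0.986 to 4.91 FPKM for Vpreb2, 1.27 to 6.28 FPKM for the interleukin 7 receptor gene Il7r and 0.405 to 2.03 FPKM for Rag1, which was under the filter. All 7 precursor genes tested had negative estimates, with a median of -0.70, and 1 passed, while without mpEC replicate 1 the median was -0.42 over 6 tested and 0 passed. With the replicate number as a factor 6 of the 7 were called, beside 26.9% of all genes. It is not known whether these numbers pair the samples.

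Receptor and signaling genes held the most abundant members. Ighm was at 334, 193 and 168 FPKM in mpEC replicates 1 to 3 and 194, 152 and 189 FPKM in bmEC replicates 1 to 3. Cd24a was at 134, 84.8 and 102 FPKM and 92.2, 94.5 and 91.9 FPKM. Both were highest in mpEC replicate 1 and overlapped between groups. The receptor signaling chains Cd79a, at 109, 57.1 and 57.5 FPKM in mpECs and 69.6, 51.6 and 57.8 FPKM in bmECs, and its partner Cd79b showed the same layout. Cd79b was at 90.5, 52.8 and 47.3 FPKM and 50.1, 44.6 and 45.5 FPKM. Without mpEC replicate 1 the estimate of Cd79a turned from -0.26 to 0.05, and that of the transcription factor Pax5, at 1.29 to 2.36 FPKM, from -0.09 to 0.09. Kinases of the receptor were low. Blk was at 2.32, 2.11 and 1.58 FPKM in mpECs and 2.31, 0.812 and 0.927 FPKM in bmECs. Btk was at 8.66, 4.87 and 6.28 FPKM and 5.33, 2.96 and 5.02 FPKM. Each overlapped between the groups, as did the adaptor gene Blnk at 3.25 to 9.23 FPKM. Of the 7 receptor and signaling genes, 0 passed limma at an adjusted p under 0.05, with 0 at an unadjusted p under 0.05 and 0 called by limma-voom on recovered reads. With the replicate number as a factor 2 were called, Blnk and Btk, both lower.

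Mature genes had estimates in both directions, with 2 positive and 8 negative among 10 tested. The rise of Cnr2 thus does not stand for the list, and which cells held its RNA was not tested. Cnr2 was at 6.34, 7.50 and 5.74 FPKM in mpEC replicates 1 to 3 and 12.5, 13.5 and 14.5 FPKM in bmEC replicates 1 to 3. All bmEC libraries lay well above all mpEC libraries, 2.07-fold in the means (log2 change of 0.95 with SE 0.12 and adjusted p = 0.000887), and Cnr2 alone also met the rule in the study's methods, an adjusted p under 0.01 with an absolute log2 fold change over 0.5, which 11.7% of all genes met. Ms4a1 was at 24.9, 15.3 and 15.4 FPKM in mpECs and 17.9, 27.7 and 24.5 FPKM in bmECs, overlapping, and with Cnr2 it gave the only positive estimates (log2 change of 0.33 with SE 0.22 and adjusted p = 0.309). Fcrla, an intracellular Fc receptor relative of B cells, was at 35.0, 16.8 and 20.5 FPKM in mpECs and 17.5, 12.4 and 11.6 FPKM in bmECs. Cd37, a tetraspanin, was at 13.9, 8.53 and 7.98 FPKM and 9.86, 5.44 and 7.76 FPKM. These groups overlapped through bmEC replicate 1. Spib, an Ets factor of B cells and plasmacytoid dendritic cells, was at 5.02, 4.09 and 3.95 FPKM in mpECs and 3.59, 2.90 and 3.74 FPKM in bmECs. Cd22, an inhibitory coreceptor, was at 1.35, 1.51 and 1.10 FPKM and 0.873, 1.05 and 0.925 FPKM. Neither overlapped, and neither passed (adjusted p = 0.169 and 0.237). The other mature genes ranged from 7.42 to 17.5 FPKM for the coreceptor Cd72, 1.16 to 3.51 FPKM for the scaffold Bank1, 1.47 to 2.39 FPKM for the repressor Bach2 and 0.434 to 1.91 FPKM for the IgE receptor Fcer2a, to 0.136 to 0.466 FPKM for Pou2f2, which encodes Oct-2, and 0.0568 to 0.340 FPKM for the complement receptor Cr2, the last pair under the filter.

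Ebf1 was at 12.2, 7.45 and 7.08 FPKM in mpEC replicates 1 to 3 and 5.77, 5.13 and 4.82 FPKM in bmEC replicates 1 to 3. The groups did not overlap and the mpEC mean was 1.70-fold higher (log2 change of -0.64 with SE 0.19 and adjusted p = 0.0455), and mpEC replicate 1 stood far above the others. The call was lost without mpEC replicate 2 (log2 fold change -0.73), bmEC replicate 1 (-0.70), bmEC replicate 2 (-0.62) or bmEC replicate 3 (-0.59), and also with no filter on low values and with quantile normalization. It was kept without mpEC replicate 1, whereas Cnr2 passed in every setting tried. Ebf1 is also used by marrow stromal and adipogenic cells, and 4 of 7 tested stromal and osteolineage markers were lower in bmECs and 2 higher. Their sum of 11 genes was 524, 329 and 163 FPKM in mpECs, led by Bglap, and 55.4, 88.9 and 67.5 FPKM in bmECs, and its part in the Ebf1 result was not tested. Pou2af1, a coactivator of Oct factors, was at 12.8, 6.52 and 5.54 FPKM in mpECs and 6.58, 5.52 and 4.74 FPKM in bmECs and overlapped. Jchain was at 0.0446, 13.9 and 0.227 FPKM in mpECs and 0.603, 0 and 0.187 FPKM in bmECs. A single library, mpEC replicate 2, held nearly all Jchain reads, and the gene did not pass (adjusted p = 0.42). Omitting mpEC replicate 1 left 2 members called, beside 20.1% of all genes, moved the median over members to -0.21 and left 22 of 26 estimates negative.

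**Figure D3:**
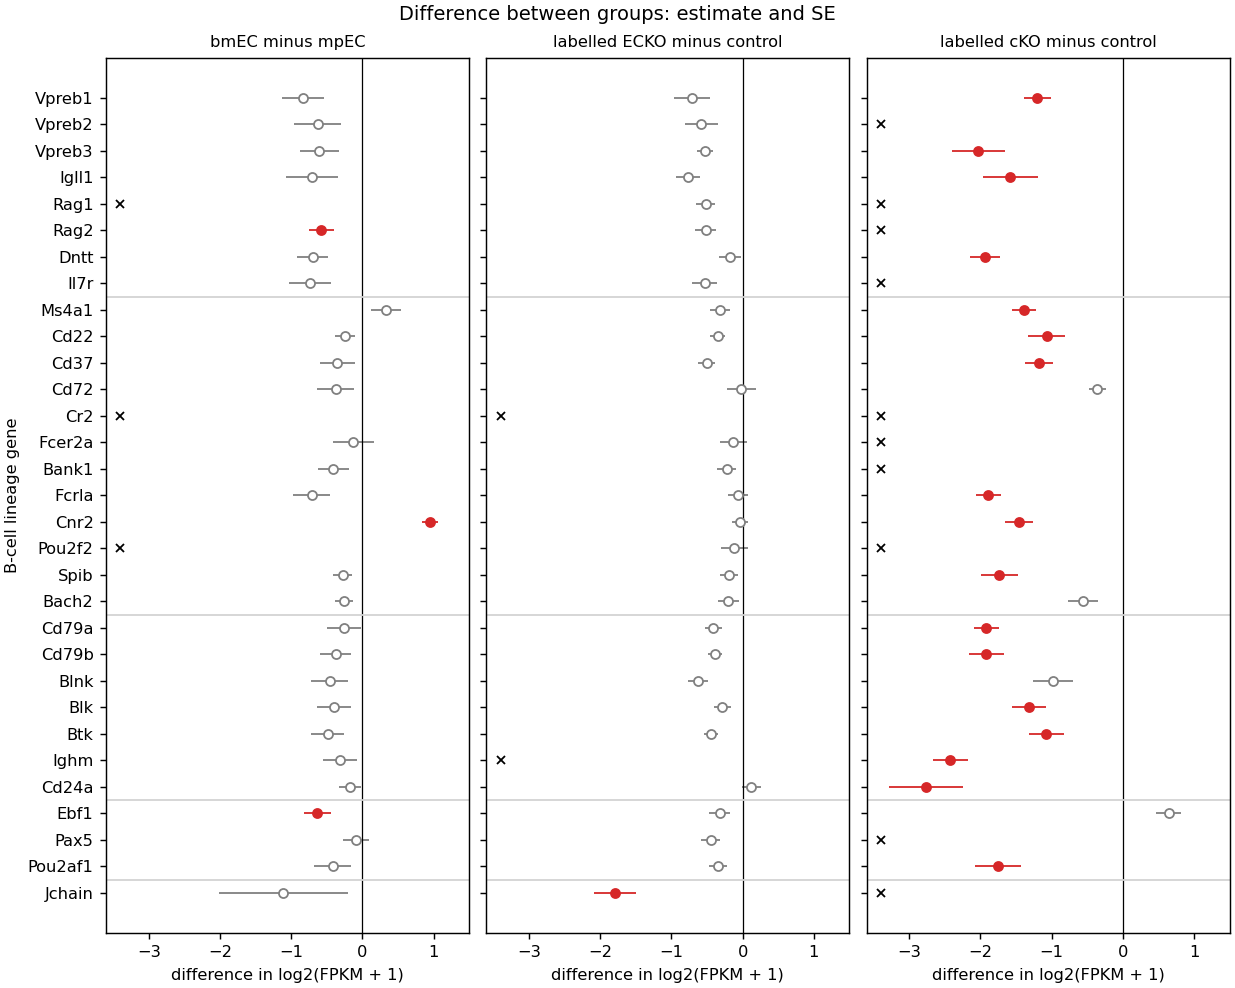
Log2 fold change with its standard error for each B-cell lineage gene in the 3 comparisons, on the log2(FPKM + 1) scale, with filled red points for an adjusted p under 0.05, open grey points for genes tested without passing, and a black cross at the left edge for genes not tested. In the Lats2 panel 17 of 21 tested genes are filled and negative, against 3 of 28 filled in the panel of bmECs against mpECs and 1 of 29 in the Yap1/Taz panel.

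Genes that act with the members were read beside them, and whether their RNA came from ECs or from blood cells was not tested. In the B-cell receptor pathway 1 gene was higher and 1 lower in bmECs. Fcgr2b, the inhibitory Fc receptor that macrophages and some ECs carry as well, was at 15.3, 10.4 and 7.63 FPKM in mpECs and 93.3, 42.9 and 32.9 FPKM in bmECs (log2 change of 2.15 with SE 0.38 and adjusted p = 0.0051), and the kinase gene Fyn was lower (log2 change -0.52, adjusted p = 0.00741). Of 13 lineage transcription factors, 9 were tested, and Irf8, shared with dendritic and other myeloid cells, rose from 13.0, 14.6 and 12.3 FPKM to 35.2, 35.4 and 35.6 FPKM (log2 change of 1.35 with SE 0.09 and adjusted p = 6.28e-05) while Lef1 was lower (adjusted p = 0.0185), a call lost without mpEC replicate 1 or 3 and without bmEC replicate 2. Among other surface and secretory genes, Cd38 was higher (1.07, adjusted p = 0.00025) and Bst1 lower (-0.76, adjusted p = 0.0029). Of 11 niche ligands and receptors that feed or attract B precursors, 6 were tested, with Kitl, Cxcr4 and Kit lower and Igf1 higher in bmECs, and leaving out each library gave 1 to 3 calls in place of 4. Kitl, which encodes stem cell factor, was at 27.8, 28.1 and 40.4 FPKM in mpECs and 6.01, 17.3 and 8.43 FPKM in bmECs (log2 change of -1.61 with SE 0.33 and adjusted p = 0.00961), and Cxcl13 was at 0 in every library.

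Markers of other blood cells were divided in this comparison. All 12 neutrophil genes tested had negative estimates with a median of -0.61, and 1, Retnlg, passed. Their sum, led by S100a8, was 28817, 12089.8 and 18635 FPKM in mpECs and 14319, 9805 and 10246 FPKM in bmECs. All 8 pan-leukocyte genes had negative estimates with a median of -0.46, and 1, Lcp1, passed. That sum, led by Arhgdib, was 998, 547 and 612 FPKM and 681, 471 and 532 FPKM. Erythroid genes had 9 of 11 positive estimates, with Epor called higher, and a sum led by Hbb-bs of 53974, 29024 and 34409 FPKM in mpECs and 61404, 57034 and 43559 FPKM in bmECs. Of 11 macrophage and monocyte genes 1 was higher and 1 lower, and of 6 T and NK cell genes 1, Lck, was higher. Leaving out mpEC replicate 2 gave 5 neutrophil calls and leaving out any other library 0, and the pan-leukocyte calls came to 0 to 2. Erythroid calls rose to 6 without mpEC replicate 1. All 10 proliferation genes were lower in bmECs, with a sum of 654, 451 and 487 FPKM in mpECs and 321, 282 and 313 FPKM in bmECs led by Rrm2. None of the neutrophil, pan-leukocyte, erythroid or proliferation genes was at 0 in any of the 6 libraries, and their part in the B-lineage values was not tested.

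The Yap1/Taz libraries were compared at postnatal day 21 to learn what the endothelial deletion changes, with the caution that Wwtr1 ran against the label. Jchain was the single member that changed. Of 29 members tested over 11320 genes with limma, 0 were higher and 1 was lower in the libraries labelled ECKO, where 0.883% of all genes were higher, 0.424% lower and 1.31% changed in either direction. At an unadjusted p under 0.05 there were 18 members, all lower, beside 2023 of all 11320 genes, and limma-voom on recovered reads called 4, all lower, beside 3.46% of all genes. The rule in the study's methods was met by 0 members and 0.00883% of all genes, although the study's account of this comparison names an adjusted p of 0.05, as used here. Of all genes 148 were called, against 1 with no filter on low values, 20 and 14 without control replicates 2 and 3, and 1 and 1 without ECKO replicates 2 and 3. Estimates were negative for 28 of 29 members, Cd24a being the exception, with a median of -0.35 against -0.01 for all genes. Libraries did not overlap, with ECKO below control, in 14 of the 29, where 11.3% of all genes were so arranged, and in 0 with ECKO above control, where 12.3% of all genes were.

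Jchain was at 24.2, 15.9 and 13.1 FPKM in control replicates 1 to 3 and 7.32, 2.64 and 3.78 FPKM in ECKO replicates 1 to 3. Every ECKO library lay below every control, and the control mean was 3.87-fold higher (log2 change of -1.79 with SE 0.29 and adjusted p = 0.0347). The call was lost without control replicate 2 (log2 fold change -1.84), control replicate 3 (-1.98), ECKO replicate 2 (-1.53) or ECKO replicate 3 (-1.72), and with no filter on low values. Mzb1, a chaperone of antibody secretion, and Ly6d, which marks B-committed progenitors, were lower too among surface and secretory genes. Mzb1 was at 22.6, 17.8 and 15.4 FPKM in controls and 8.28, 10.4 and 10.7 FPKM in ECKO libraries (log2 change of -0.85 with SE 0.15 and adjusted p = 0.0387). Ly6d was at 91.2, 73.8 and 65.5 FPKM and 40.3, 51.5 and 44.8 FPKM (log2 change of -0.74 with SE 0.14 and adjusted p = 0.0417). Neither gene overlapped between groups. Cd38 of the same list was higher (0.51, adjusted p = 0.0423), and which cells held its RNA was not tested. The calls of Mzb1, Ly6d and Cd38 were all lost with no filter on low values and with the replicate number as a factor. They were also lost without any 1 of the controls and without ECKO replicate 2 or 3, and that of Ly6d also without ECKO replicate 1.

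Dntt stood out among precursor genes for its level. It was at 277, 214 and 203 FPKM in control replicates 1 to 3 and 167, 239.8 and 207 FPKM in ECKO replicates 1 to 3, with overlapping groups. Vpreb3 was at 28.5, 34.8 and 26.5 FPKM in controls and 20.9, 20.1 and 20.1 FPKM in ECKO libraries. Igll1 was at 7.20, 7.05 and 6.05 FPKM and 4.85, 2.69 and 3.42 FPKM. In Vpreb3 and Igll1 each ECKO library lay below each control, but adjusted p-values were 0.0626 and 0.0643. Vpreb1 was at 7.95, 6.27 and 2.90 FPKM in controls and 2.69, 2.77 and 3.16 FPKM in ECKO libraries, and control replicate 3 fell among the ECKO values. Rag2 was at 3.63, 2.89 and 3.30 FPKM and 1.69, 2.10 and 2.16 FPKM, without overlap (adjusted p = 0.103). Rag1 ranged over 4.25 to 7.43 FPKM, Il7r over 2.69 to 6.04 FPKM and Vpreb2 over 0.998 to 3.39 FPKM. All 8 precursor genes had negative estimates with a median of -0.53, and 0 passed with limma, although 7 had an unadjusted p under 0.05 and limma-voom called 1, Rag1.

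Receptor chains were measured at high levels. Cd79b was at 139, 124 and 118 FPKM in control replicates 1 to 3 and 100.1, 95.9 and 93.7 FPKM in ECKO replicates 1 to 3. Cd79a was at 47.7, 58.9 and 49.7 FPKM and 35.4, 36.6 and 45.1 FPKM. All ECKO values lay under all control values in both, with log2 fold changes of -0.39 and -0.41 and adjusted p-values of 0.0785 and 0.124. Btk was at 14.3, 14.9 and 16.1 FPKM in controls and 11.3, 10.3 and 10.9 FPKM in ECKO libraries. Blk was at 9.36, 11.5 and 10.8 FPKM and 7.62, 9.05 and 8.82 FPKM. The kinases had the same arrangement without passing (adjusted p = 0.0654 and 0.245), as did Blnk at 2.86 to 6.30 FPKM (adjusted p = 0.0643). Cd24a was at 274, 235 and 275 FPKM in controls and 341, 269 and 250.2 FPKM in ECKO libraries, overlapping, with ECKO replicate 1 the highest. Of the transcription genes, Pou2af1 was at 19.1, 22.3 and 17.6 FPKM and 17.4, 14.6 and 13.8 FPKM, without overlap. Ebf1 was at 2.85, 3.83 and 3.53 FPKM and 2.99, 2.26 and 2.31 FPKM, with overlap. Pax5 ranged over 4.25 to 8.19 FPKM and did not overlap (adjusted p = 0.13). With limma 0 of 6 receptor genes and 0 of 3 transcription genes passed, 5 and 2 had an unadjusted p under 0.05, and limma-voom called 1, Blnk.

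Of these roles, mature genes had the median estimate nearest 0. Ms4a1 was at 78.9, 62.3 and 55.8 FPKM in control replicates 1 to 3 and 47.9, 59.0 and 49.5 FPKM in ECKO replicates 1 to 3. Spib was at 39.0, 46.9 and 40.9 FPKM and 30.4, 39.8 and 41.3 FPKM. Fcrla was at 30.1, 23.6 and 22.1 FPKM and 19.9, 25.8 and 26.5 FPKM. The groups overlapped in all 3 genes. Cd37 was at 16.4, 19.5 and 17.9 FPKM in controls and 14.2, 11.3 and 11.5 FPKM in ECKO libraries. Cd22 was at 13.5, 12.2 and 12.2 FPKM and 10.5, 9.47 and 9.09 FPKM. These alone of the mature genes had ECKO libraries below all controls (adjusted p = 0.0665 and 0.126). Cnr2 was at 7.04, 7.37 and 7.22 FPKM in controls and 7.15, 7.56 and 6.37 FPKM in ECKO libraries, nearly level across the 6. The remaining mature genes ranged from 14.1 to 21.1 FPKM for Bank1 and 4.19 to 8.15 FPKM for Cd72 over 1.80 to 3.44 FPKM for Fcer2a, 1.77 to 3.23 FPKM for Pou2f2 and 1.94 to 2.95 FPKM for Bach2 to 0.369 to 0.984 FPKM for Cr2, which was under the filter. The median estimate was -0.19 over 11 tested mature genes, and 0 passed with limma, 3 had an unadjusted p under 0.05 and limma-voom called 1, Cd37.

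Companion genes and other cell types gave few calls in the Yap1/Taz set. In the receptor pathway Rasgrp3, an exchange factor that ECs express as well, was higher (0.69, adjusted p = 0.0347) and the phosphatase gene Ptpn6 was lower, from 66.8, 67.4 and 72.5 FPKM in controls to 50.0, 47.5 and 48.1 FPKM in ECKO libraries (log2 change of -0.50 with SE 0.09 and adjusted p = 0.0387). Both calls were lost with no filter on low values, with the replicate number as a factor, without control replicate 2 or 3, and without ECKO replicate 2 or 3. Of 11 tested lineage transcription factors 0 passed in limma, with 4 at an unadjusted p under 0.05 and 1, Ikzf3, called by limma-voom, and of 6 tested niche genes 0 passed, with 3 unadjusted and 1, Cxcr4, called by limma-voom. The pan-leukocyte sum, led by Coro1a, was 933, 912 and 931 FPKM in controls and 921, 914 and 899.9 FPKM in ECKO libraries, with 0 of 8 genes called by limma, 1 at an unadjusted p under 0.05, 0 called by limma-voom and none at 0 FPKM. All 12 endothelial genes had positive estimates, 1 of them, Cldn5, called higher (1.09, adjusted p = 0.0117), a call lost with no filter on low values and without ECKO replicate 2 or 3. Limma-voom called 4 endothelial genes, as did limma without ECKO replicate 1, and the endothelial sums given above were higher in each ECKO library than in each control. Stromal and osteolineage genes were called as well, with Col1a1 (-1.95, adjusted p = 0.0388) and Bglap (-1.11, adjusted p = 0.0387) lower among 9 tested, and neither was called with no filter on low values, without control replicate 2 or 3, or without ECKO replicate 2 or 3. Col1a1 was also lost without control replicate 1. Bglap was also lost with limma-voom and with the replicate number as a factor, and it was under the filter at 5 FPKM. Their sum was 52.3, 55.8 and 67.1 FPKM in controls and 42.3, 26.8 and 27.0 FPKM in ECKO libraries. Of 6 megakaryocyte and platelet genes tested Ppbp was higher (1.27, adjusted p = 0.0117), a call lost with no filter and without ECKO replicate 2 or 3. Neutrophil, erythroid and macrophage genes had 0 calls, with a neutrophil sum of 2490.0, 2197 and 2831 FPKM in controls and 4045, 1831 and 1734 FPKM in ECKO libraries, an erythroid sum of 5663, 4892 and 5857 FPKM and 7032, 4732 and 5307 FPKM, and a macrophage and monocyte sum of 1784, 1700.3 and 2342 FPKM and 1858, 1694 and 1615 FPKM. All 10 proliferation genes had negative estimates and 0 were called, with sums of 367, 354 and 356 FPKM and 314, 313 and 305 FPKM. The part of these shifts in the B-lineage values was not tested. Spib and Dntt are also used by plasmacytoid dendritic cells, whose marker Siglech was at 2.74, 1.42 and 2.82 FPKM and 2.15, 1.77 and 2.24 FPKM. Siglech is 1 of 7 genes listed for these cells, of which Bst2 was the most abundant. Among the 6 tested 0 were called, with 2 positive and 4 negative estimates.

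The Lats2 libraries were compared to learn what changes when this Hippo kinase gene is deleted in ECs. Here most B-lineage genes tested fell, across precursor, receptor and mature genes. Of 21 members tested, 17 were lower and 0 higher in the libraries labelled cKO, where 9.98% of 12453 genes tested were lower, 11.8% higher and 21.8% changed in either direction. Among those called, Dntt, Igll1, Cd22, Fcrla, Blk and Btk had cKO means under 1 FPKM. They met the filter on the mean over all libraries through the controls. The 17 comprised all 4 precursor genes tested, 6 of 7 receptor and signaling genes, 6 of 8 mature genes and 1 of 2 transcription genes. Their log2 fold changes ran from -2.77 for Cd24a to -1.07 for Cd22, and the median over tested members was -1.46 against 0.00 for all genes. In the main limma fit no tested member had an adjusted p under 0.05 in the higher direction, and the count at an unadjusted p under 0.05 was 1, Ebf1. Limma-voom called 1, Ebf1, higher, and limma with quantile normalization called Ebf1 as well. The groups did not overlap, with cKO below control, in 20 of the 21, where 34.2% of all genes were so arranged, and in 1 with cKO above, where 34.0% of all genes were. By the rule in the study's methods 4 members were lower, Fcrla, Cd79a, Ighm and Dntt, beside 2.06% of all genes by that rule.

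The calls rest on both controls. With 2 libraries in each group, omitting control replicate 1 or control replicate 2 left 0 members and 0 genes called by limma, the lone control then being assumed to vary like the cKO libraries. Unadjusted p-values under 0.05 were found for 15 of 20 members and 2724 genes without control replicate 1, and for 18 of 21 members and 2879 genes without control replicate 2. Median estimates over members were -1.36 and -1.47 in these fits. Without cKO replicate 2 there were 8 members called at a median of -1.25. The calls lost with that library were those of Vpreb1 (-1.24), Vpreb3 (-1.56), Igll1 (-1.06), Cd22 (-0.88), Cd37 (-1.14), Spib (-1.67), Blk (-1.25), Btk (-1.05) and Pou2af1 (-1.32), with log2 fold changes in parentheses. Without cKO replicate 1 there were 16, with Spib (-1.81) and Btk (-1.10) lost and Blnk (-1.26) gained. With no filter on low values 10 members were called, beside 7.01% of all genes. That fit lost the calls of Btk, Cd22, Cd24a, Cd37, Igll1, Pou2af1 and Vpreb3, while a pseudocount of 0.1 lost Cd22 and Igll1. Cd24a moved furthest, to -3.59 without cKO replicate 1 and -1.95 without cKO replicate 2.

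Among precursor genes Dntt was at 4.34 and 4.27 FPKM in control replicates 1 and 2 and 0.498 and 0.283 FPKM in cKO replicates 1 and 2 (log2 change of -1.94 with SE 0.21 and adjusted p = 0.00996). Vpreb3 was at 20.8 and 13.1 FPKM in controls and 4.94 and 2.11 FPKM in cKO libraries (log2 change of -2.03 with SE 0.37 and adjusted p = 0.0223). Vpreb1 was at 5.96 and 4.68 FPKM and 1.67 and 1.81 FPKM (log2 change of -1.20 with SE 0.19 and adjusted p = 0.0165). In each gene both cKO libraries lay far below both controls. Igll1 was at 3.72 and 4.58 FPKM in controls and 1.47 and 0.186 FPKM in cKO libraries, on 2 to 59 reads (log2 change of -1.58 with SE 0.39 and adjusted p = 0.0424), and cKO replicate 2 was the lower of the pair. The other precursor genes were under the filter, Il7r at 0.0626 to 1.69 FPKM, Rag1 at 0 to 0.365 FPKM, Rag2 at 0.0774 to 0.881 FPKM and Vpreb2 at 0 to 0.937 FPKM. Each of them also had both cKO libraries below both controls, on few reads, and they were not tested.

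Of the receptor genes, 6 of 7 fell with them. Ighm was at 178 and 146 FPKM in control replicates 1 and 2 and 37.1 and 23.0 FPKM in cKO replicates 1 and 2, 5.39-fold lower in the means (log2 change of -2.42 with SE 0.25 and adjusted p = 0.00912). Cd79a was at 39.9 and 34.2 FPKM in controls and 10.4 and 7.86 FPKM in cKO libraries (log2 change of -1.92 with SE 0.17 and adjusted p = 0.00808). Cd79b was at 30.1 and 25.4 FPKM and 8.52 and 5.05 FPKM (log2 change of -1.92 with SE 0.24 and adjusted p = 0.0118). All 3 genes were highest in control replicate 1 and lowest in cKO replicate 2. Cd24a was at 70.0 and 69.7 FPKM in controls and 17.4 and 4.88 FPKM in cKO libraries, the largest change on the log2(FPKM + 1) scale (log2 change of -2.77 with SE 0.52 and adjusted p = 0.0237), while Dntt and Fcrla fell by more as ratios of means (11.0-fold and 6.48-fold against 6.27-fold). Blk was at 3.33 and 2.51 FPKM and 0.642 and 0.487 FPKM. Btk was at 2.43 and 1.82 FPKM and 0.505 and 0.447 FPKM. Both kinases fell, by log2 fold changes of -1.32 and -1.07 (adjusted p = 0.0213 and 0.0363). Blnk ranged over 0.436 to 2.75 FPKM and did not pass (adjusted p = 0.0645).

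Most mature genes tested fell as well. Fcrla was at 6.45 and 6.17 FPKM in control replicates 1 and 2 and 0.911 and 1.04 FPKM in cKO replicates 1 and 2 (log2 change of -1.89 with SE 0.17 and adjusted p = 0.00808). Cnr2 was at 15.5 and 12.8 FPKM in controls and 5.39 and 3.73 FPKM in cKO libraries (log2 change of -1.46 with SE 0.20 and adjusted p = 0.0132). Ms4a1 was at 12.3 and 10.8 FPKM and 3.35 and 4.30 FPKM (log2 change of -1.38 with SE 0.17 and adjusted p = 0.011). Controls and cKO libraries were far apart in each. Spib was at 12.9 and 7.58 FPKM in controls and 2.43 and 2.12 FPKM in cKO libraries, with adjusted p = 0.0152. Cd37 was at 5.91 and 4.47 FPKM and 1.80 and 1.65 FPKM, with adjusted p = 0.0187. Cd22 was at 2.75 and 2.10 FPKM and 0.859 and 0.419 FPKM, with adjusted p = 0.043. Again neither group reached the other. Cd72 was at 18.0 and 17.8 FPKM in controls and 14.0 and 13.4 FPKM in cKO libraries, a small step of -0.36 that did not pass (adjusted p = 0.085), and Bach2, at 1.20 to 2.53 FPKM, did not pass either (adjusted p = 0.12). Under the filter were Bank1 at 0.247 to 1.67 FPKM, Fcer2a at 0.237 to 1.08 FPKM, Pou2f2 at 0.0647 to 0.433 FPKM and Cr2 at 0.0731 to 0.277 FPKM.

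Transcription genes split. Pou2af1 was at 8.62 and 6.42 FPKM in controls and 2.38 and 0.861 FPKM in cKO libraries (log2 change of -1.75 with SE 0.33 and adjusted p = 0.0237). Ebf1 was at 3.28 and 4.36 FPKM in controls and 6.25 and 6.75 FPKM in cKO libraries. It was the one tested member with cKO libraries above controls, and it did not pass in the main fit (log2 change of 0.65 with SE 0.18 and adjusted p = 0.0564). Ebf1 was called with quantile normalization and with limma-voom on deposited and on summed sizes. Pax5 was at 0.117 to 0.470 FPKM and Jchain at 0 and 0 FPKM in controls and 0.292 and 0 FPKM in cKO libraries, both under the filter. Jchain was thus almost without reads in a set where Ighm was abundant.

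Genes that act with B-lineage members also changed in the Lats2 set. Whether their RNA, such as that of Cxcr4, Cd93 and Cd38, came from ECs or from blood cells was not tested. Ly6d was at 46.5 and 36.5 FPKM in controls and 8.44 and 12.2 FPKM in cKO libraries (log2 change of -1.92 with SE 0.22 and adjusted p = 0.0102). Fcgr2b and Vav2 of the receptor pathway fell by 1.91 and 1.58 in log2 units (adjusted p = 0.00986 and 0.00944). The other called genes of these lists were lower too, except Bcl10 of the receptor pathway, which rose by 0.81 and Cd93 of the surface genes, which rose by 0.86 (adjusted p = 0.0178 and 0.0128). Of the 5 genes named here Bcl10 lost its call without cKO replicate 2, and all 5 lost it without either control. Of 9 transcription factors tested, 4 were lower, among them Irf8 (-1.45), Myb (-1.69) and Ikzf1 (-1.41), and Prdm1, which ECs also use, was higher (1.64). The list had 3 calls in place of 5 without cKO replicate 2. Niche genes went the other way. Of 5 tested, 4 were higher, with Cxcr4 at 5.56 and 4.65 FPKM in controls and 18.5 and 43.4 FPKM in cKO libraries (log2 change of 2.27 with SE 0.39 and adjusted p = 0.0197), Kit at 1.30, Kitl at 1.14 and Cxcl12 at 0.65 on the log2 scale. In place of 4 calls there was 1 without cKO replicate 1, 1 without cKO replicate 2 and 0 with no filter on low values. Tnfrsf17, the receptor BCMA of plasma cells, was listed at 0 in all 4 libraries.

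Markers of several other blood cells fell in the same libraries. Of 11 neutrophil genes tested, 7 were lower, and the sum of the 12, led by S100a8, was 2998 and 2049 FPKM in controls and 917 and 725 FPKM in cKO libraries, where 2 and 3 of them were at 0. Of 11 erythroid genes, 5 were lower, with a sum of 3978 and 2725 FPKM and 1465 and 291 FPKM. Of 8 pan-leukocyte genes, 5 were lower, and their sum, led by Arhgdib, was 261 and 225 FPKM and 161 and 118 FPKM. Of 4 tested T and NK cell genes, 2 were lower, and 3 and 0 of the 17 genes were at 0 in the controls against 6 and 11 in the cKO libraries. Of 10 macrophage and monocyte genes 2 were lower, and the sum led by Lyz2 was 746 and 642 FPKM and 378 and 116 FPKM. Endothelial genes were mixed, with 1 higher and 2 lower of 12, and 4 of 10 proliferation genes were higher. These counts moved when single cKO libraries were omitted. Without cKO replicate 1 there were 9 neutrophil, 10 erythroid, 7 pan-leukocyte, 5 macrophage and monocyte and 1 proliferation calls, and without cKO replicate 2 there were 2, 8, 1, 2 and 3. The plot of summed levels shows the neutrophil, erythroid, macrophage, pan-leukocyte and T and NK cell sums and the B-lineage sum lower in both cKO libraries, while the endothelial sums stayed within 3202 to 3673 FPKM. The part of the other cell types in the result was not tested.

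**Figure D4:**
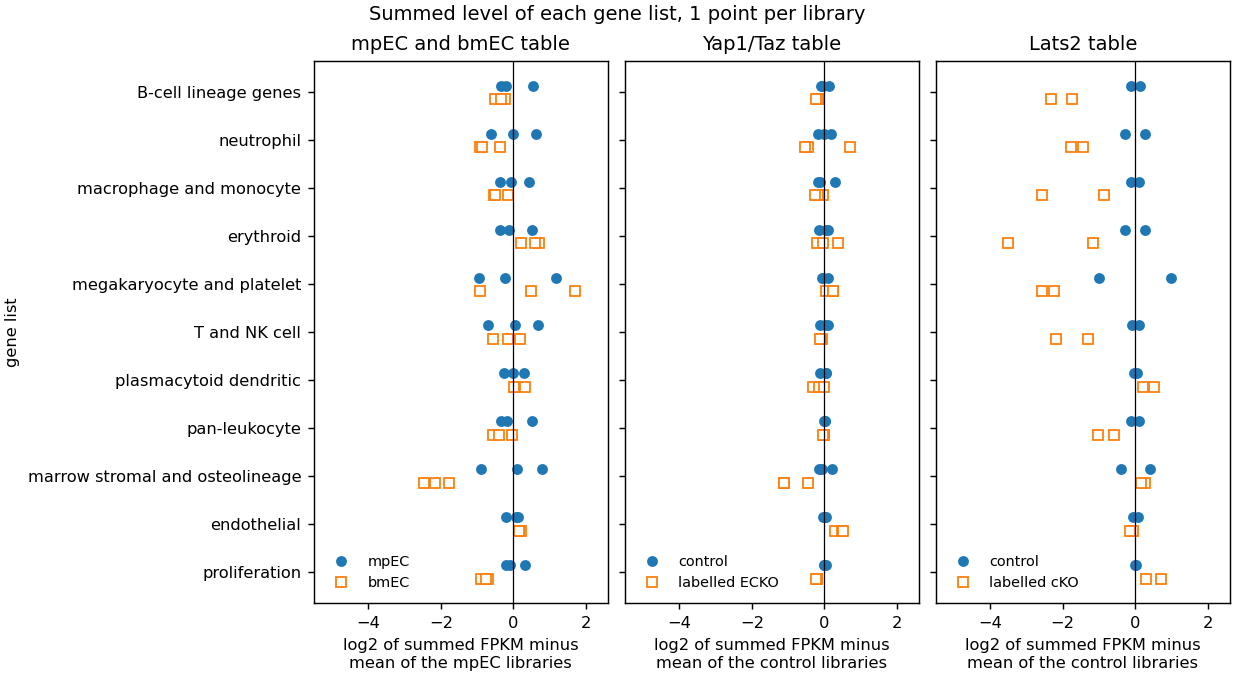
Log2 of the summed FPKM of the B-cell lineage genes and of marker lists of other cell types in each library, given relative to the mean of the mpEC or control libraries, with 1 point per library colored by group and the sets in separate panels because they were scaled separately. In the Lats2 panel the B-lineage sum is 457 and 387 FPKM in controls and 126 and 83.3 FPKM in cKO libraries, and the neutrophil and erythroid sums are lower in cKO libraries as well.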

How the data were processed

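The FPKM values are those the authors deposited. According to the submitters' processing notes, reads were mapped to GRCm38 (mm10) with TopHat, counted with HTSeq 0.6.1 and tested with DESeq2; the tool behind the FPKM values and the strand setting of the counting are not given in the sources used here. The members and lists were chosen with earlier results of these data known. Within each set of libraries, genes whose mean reached 1 FPKM were fitted on log2(FPKM + 1) with limma 3.58.1 (trend, moderated t) in R 4.3.3, with Benjamini-Hochberg adjustment over all genes tested and a call at an adjusted p under 0.05. Preparation and summaries used Python 3.11.15, pandas 2.3.3, numpy 2.4.6 and GENCODE M21. Values in every library are given for each member called in at least 1 comparison, except Rag2 in the Lats2 set, and for the 3 most abundant members of each set. Ranges are given for Rag2 in the Lats2 set and for the other members. The code was tested on simulated data. Other pseudocounts, filters, quantile normalization, a replicate block, the rule in the study's methods and the omission of each library were tried, and limma-voom on reads recovered from FPKM, the ratio without Dntt and the ratio without each library were added after seeing the data. No pair of libraries was identical. Left out were Ighm in the Yap1/Taz set, 1 gene that is not reported here with the counts that include it, and tests of the precursor to mature ratio.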

Additional observations from a re-analysis of the deposited data

How the results depend on the processing

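Alternatives changed several counts, and the cause was not tested unless named. In bmEC against mpEC, 3 members were called. The number was 1 with no filter on low values, 1 with quantile normalization, 1 by the study's threshold, and 9 with limma-voom when library sizes came from summed reads, against 3 with sizes as in the deposited scaling. Leaving out each library gave 1 to 3. Of all genes, 2682 were called, and 1335 by the study's threshold. The share of all genes called was 23.5% in the main fit, 11.2% with no filter and 25.2% with quantile normalization. It was 15.9% to 20.7% when single libraries were left out. Limma-voom called 24.5% and 30.5% of all genes on deposited and summed sizes. With summed reads as sizes the median over all genes was -0.19 against 0.00, and 27.1% of calls were higher against 55.5% with limma-voom on deposited sizes and 55.2% in the main fit.

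In the Yap1/Taz comparison 1 member was called, 0 with no filter, 2 with a filter at 5 FPKM, 4 and 6 with limma-voom on deposited and summed sizes, and 0 by the threshold in the study's methods, which is stricter than the adjusted p of 0.05 in its account of this comparison. Leaving out each library gave 0 to 3. With the filter at 5 FPKM 2.35% of all genes were called, against 1.31% in the main fit. Of all genes 148 were called, 1 with no filter, 391 and 357 with limma-voom and 1 by that stricter threshold, and 114, 20, 14, 293, 1 and 1 without control replicates 1 to 3 and ECKO replicates 1 to 3. Of the calls 67.6% were higher, 70.3% and 57.4% with limma-voom on deposited and summed sizes, 55.0% and 57.1% without control replicates 2 and 3, and 0 where a single gene was called. The precursor to mature difference of -0.01 was -0.51 with medians and -0.40 without Dntt.

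In the Lats2 comparison 17 members were called, 10 with no filter, 8 with a filter at 5 FPKM, where 10 were tested, and 4 by the study's threshold. The number was 18 with quantile normalization, beside 22.0% of all genes. Shares of all genes were 7.01% with no filter and 30.3% with a filter at 5 FPKM. Limma-voom on deposited and summed sizes called 20 and 21 members, beside 26.9% and 28.3% of all genes. Leaving out each library gave 0 to 16. Of all genes 2711 were called, 1389 with no filter, 933 without cKO replicate 2, 257 by the study's threshold and 0 without either control. With summed sizes the median over all genes was -0.14 and 38.5% of calls were higher, against 51.4% with limma-voom on deposited sizes and 54.1% in the main fit. The precursor to mature difference of -1.06 was -0.17 with medians.

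Some estimates changed sign, all of members that were not called. Leaving out each library in bmEC against mpEC gave -0.28 to 0.10 for Fcer2a (main fit -0.13), -0.41 to 0.047 for Cd79a (-0.26) and -0.19 to 0.09 for Pax5 (-0.09). In the Yap1/Taz comparison the ranges were -0.25 to 0.16 for Cd72 (main fit -0.02), -0.27 to 0.063 for Fcer2a (-0.13), -0.15 to 0.062 for Fcrla (-0.07), -0.083 to 0.025 for Cnr2 (-0.04), -0.28 to 0.029 for Pou2f2 (-0.12) and -0.006 to 0.22 for Cd24a (0.12). Cd72 was at 0.001 with quantile normalization. In the Lats2 comparison every member kept its direction, and Cnr2 in bmEC against mpEC kept its call throughout. The filter on low values left out 3, 1 and 10 members in the 3 comparisons.

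The replicate block, with the replicate number as a factor, called 11 members in bmEC against mpEC, 1 in the Yap1/Taz comparison and 16 in the Lats2 comparison. Members gained in bmEC against mpEC were Vpreb1, Vpreb3, Igll1, Dntt, Il7r, Fcrla, Blnk and Btk. Of all genes it called 26.9%, 0.398% (45 genes) and 21.3% in the same order. Deviations of samples with the same number correlated at 0.307, 0.088 and 0.102 in the first, -0.175, -0.123 and -0.155 in the second and 0.065 in the third, and not every sample correlated best with its own number. These values do not show that the numbers pair the samples, and they do not exclude it.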

Other observations

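Wwtr1 was at 53.8 and 58.9 FPKM in Lats2 controls and 83.3 and 92.5 FPKM in the libraries labelled cKO (log2 change of 0.63 with SE 0.12 and adjusted p = 0.0257, limma with Benjamini-Hochberg adjustment). Megakaryocyte and platelet genes were uneven among replicates, with a summed level of 341, 78.6 and 130.4 FPKM in mpEC replicates 1 to 3 and 489.5, 80.5 and 215 FPKM in bmEC replicates 1 to 3.

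The Lats2 groups hold 2 libraries each and the others 3, while the methods state biological triplicates. The labels do not say that libraries came from separate animals. In these libraries deletion was not shown by the levels of Yap1, Wwtr1 or Lats2. Wwtr1 was higher under the ECKO label, by a call that single omitted libraries undid. Its log2 fold change was 0.72 to 0.89 over the fits tried. Other assays of deletion in the study were not analysed here. The sorted libraries contain RNA of blood cells, so B-lineage values describe the sort and not endothelial expression alone. Spatial position within bone, cell numbers and protein were not analysed here. A call in one comparison and its absence in another do not show a difference between them, since this was not tested.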
